A study of Mus musculus with 7 samples.

Results

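The miR-30 and miR-26 families are represented here by 7 mouse guide strands: mmu-miR-30a-5p, mmu-miR-30b-5p, mmu-miR-30c-5p, mmu-miR-30d-5p, mmu-miR-30e-5p, mmu-miR-26a-5p and mmu-miR-26b-5p. They are the 5p arms of both families among the 1881 mouse miRNA names on the array. The rule uses names and no measured value, but these families were picked for description with earlier results of these data known. MiRNA signal was read on 7 one-colour Agilent arrays. The RNA came from CD4+ helper T cells, purified by positive selection from draining lymph nodes. EAM, the myocarditis model, gave 4 arrays, and LAD, the myocardial infarction model, gave 3. By the sample labels, EAM was sampled at day 6 and LAD at day 3, whereas the design text of the series swaps these days. Strain, age, sex, whether animals were pooled and whether the arrays of a group came from separate mice are not given in the sources used here, so p-values measure the spread between these arrays. No untreated or healthy group was analysed here. The model, the day and the leading array position number in the scan names changed together and cannot be told apart.

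MiRNAs are short RNAs that guide a silencing complex to messenger RNAs, chosen mainly by the seed at bases 2 to 8 of the guide strand. Members of a family share the seed and so can share targets, even when they come from different genes. The miR-26 genes lie in genes of the CTDSP phosphatases, which act on the retinoblastoma pathway, and miR-26 is known for restraining the histone methyltransferase Ezh2. The miR-30 family is known for targeting Prdm1, the gene of the transcription factor Blimp-1, and for regulating autophagy.

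The sequences show how closely the members resemble each other, which bears on how the probes tell them apart. RefSeq (GRCm38.p6) held mature sequences for 5 of the 7 members, all but miR-30b-5p and miR-30d-5p. The capitals mark the seed.
miR-30a-5p: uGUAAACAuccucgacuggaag
miR-30c-5p: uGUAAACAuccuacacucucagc
miR-30e-5p: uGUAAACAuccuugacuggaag
miR-26a-5p: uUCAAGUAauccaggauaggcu
miR-26b-5p: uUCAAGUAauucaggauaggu

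Counted from 1 at the 5′ end, miR-30a-5p and miR-30e-5p differed by the single substitution C13U, and miR-26a-5p and miR-26b-5p by C11U and C21U over the 21 bases compared. miR-30a-5p and miR-30c-5p differed at 5 of 22 positions, all of them past the seed. The miR-30 seed, GUAAACA, occurred in 4 of the 1679 mature names of the table. The one outside the members, miR-384-5p, was detected on 0 of 7 arrays. The miR-26 seed, UCAAGUA, occurred in miR-26a-5p and miR-26b-5p and in 0 others.

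In the array design (mm9), the longest probes lay at chr1:23279119-23279134 (+) for miR-30a-5p, chr15:68169003-68169018 (-) for miR-30b-5p, chr15:68172790-68172802 (-) for miR-30d-5p, chr4:120445233-120445248 (-) for miR-30e-5p and chr1:74440900-74440918 (+) for miR-26b-5p. miR-30c-5p and miR-26a-5p each come from a pair of loci that the array cannot separate. Those of miR-30c-5p were chr1:23298558-23298575 (+) and chr4:120442160-120442177 (-). Those of miR-26a-5p were chr9:118940935-118940950 (+) and chr10:126432605-126432620 (+). In the RefSeq annotation, Mir30e and Mir30c-1 lie within Nfyc, the gene of a subunit of the NF-Y transcription factor, Mir26a-1 within Ctdspl, Mir26a-2 within Ctdsp2 and Mir26b within Ctdsp1. Mir30a and Mir30c-2 on chromosome 1, and Mir30b and Mir30d on chromosome 15, lie within no other listed gene.

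Between 445 and 471 miRNAs were detected per EAM array and between 311 and 380 per LAD array. All 6 miRNAs listed as T cell and lymphocyte markers were detected on all 7 arrays, and all 7 of heart and muscle were detected on 0. Of the 7 stromal and endothelial markers, 6 were detected on 0 arrays. The remaining marker, miR-126a-3p, was detected on 3 EAM arrays and 2 LAD arrays. The myeloid miR-223-3p and the red cell miR-451a were detected on all 7 arrays. The other listed myeloid marker, miR-223-5p, and the other 3 red cell markers were detected on 0. miR-223-3p was higher in LAD, opposite to the members, with a difference of -1.52 (limma adjusted p = 0.0117), and miR-451a did not pass. Of the T cell markers, miR-142a-3p, miR-150-5p and miR-155-5p passed toward EAM and miR-181a-5p toward LAD. The part of these markers in the members' differences was not tested. The summed signal of the 7 epithelial markers was 56.9 to 89.2 intensity units on the EAM arrays and 0.7 to 10.74 on the LAD arrays, moving in the same direction as the members, and its part in the results was not tested. With no resting or activated reference cells, these arrays do not show whether the cells were resting.

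All 7 members were detected on all 7 arrays, and 0 of their spots were saturated. In quantile-normalized log2 signal each had a higher mean in EAM than in LAD, but 1 member, miR-30b-5p, passed the test (limma, Benjamini-Hochberg adjusted p under 0.05 over all tested miRNAs). That is 1 of 7, where 36.2% of the 423 tested miRNAs passed toward EAM, 23.6% toward LAD and 59.8% in either direction. The 4 EAM arrays lay close together for every member, with SDs of 0.030 to 0.13, while the LAD arrays had SDs of 0.092 to 0.48. Fewer cells of a type and less RNA per cell cannot be told apart in these bulk samples.

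**Figure D1:**
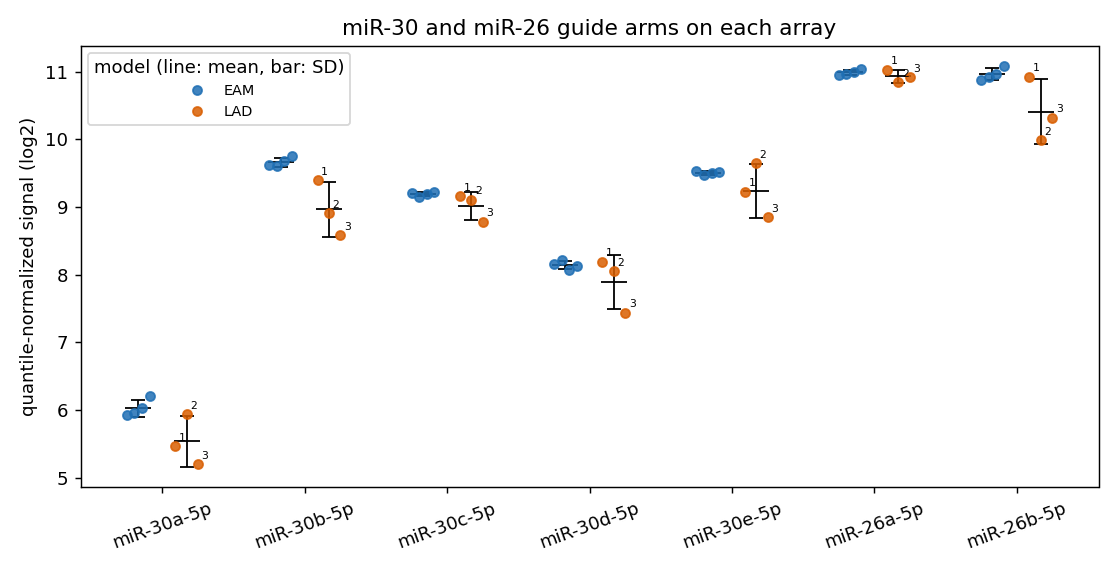
Quantile-normalized log2 signal (vertical axis) of each member on the 4 EAM arrays (blue) and 3 LAD arrays (orange, numbered by replicate); horizontal lines are means and bars SDs. For miR-30b-5p all LAD arrays lie below all EAM arrays, miR-26a-5p is nearly level, and LAD array 2 is low for miR-26b-5p but not for miR-30e-5p.

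Within the miR-30 family, mmu-miR-30b-5p was 1.62-fold higher in EAM. Its signal was 9.62, 9.60, 9.68 and 9.75 on EAM arrays 1 to 4 and 9.40, 8.91 and 8.59 on LAD arrays 1 to 3. Every LAD array lay below every EAM array. Over all tested miRNAs, 33.8% showed such a gap toward EAM and 56.0% in either direction. The difference was 0.70 (log2, standard error 0.19, 95% interval 0.26 to 1.14, limma adjusted p = 0.0201). Without any single EAM array the difference was 0.67 to 0.72 and the adjusted p 0.0513 to 0.0609, and without LAD array 3 they were 0.51 and 0.0515, so the call was lost. It held without LAD array 1 (0.92, adjusted p = 0.00718) and without LAD array 2 (0.67, adjusted p = 0.0205).

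mmu-miR-30a-5p had values of 5.92, 5.96, 6.02 and 6.20 in EAM and 5.47, 5.94 and 5.20 in LAD. LAD arrays 1 and 3 were low and LAD array 2 lay within the EAM range, so the groups overlapped. The difference of 0.49 (standard error 0.19) did not pass (limma adjusted p = 0.0510). Without LAD array 2 it was 0.69 and passed (adjusted p = 0.00150), and without LAD array 3 it was 0.32 (adjusted p = 0.156). Among the members whose sequences are shown here, this miRNA and miR-30e-5p are the pair that a single base separates.

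miR-30e-5p, which shares the host gene Nfyc with the miR-30c-1 locus, had 9.54, 9.47, 9.50 and 9.52 in EAM and 9.22, 9.65 and 8.85 in LAD. Its highest value of all arrays was on LAD array 2 and its lowest on LAD array 3. The difference of 0.27 (standard error 0.18) did not pass (limma adjusted p = 0.227). Without LAD array 2 it was 0.47 and passed (adjusted p = 0.00682), and without LAD array 3 it was 0.072 (adjusted p = 0.685).

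miR-30c-5p and miR-30d-5p differed least within their family. miR-30c-5p had 9.21, 9.14, 9.20 and 9.22 in EAM and 9.16, 9.11 and 8.78 in LAD, a difference of 0.17 (limma adjusted p = 0.251, 95% interval -0.12 to 0.47). miR-30d-5p, a neighbour of miR-30b on chromosome 15, had 8.15, 8.21, 8.07 and 8.12 in EAM and 8.19, 8.05 and 7.44 in LAD, a difference of 0.25 (adjusted p = 0.257, interval -0.18 to 0.68). In both miRNAs LAD array 3 lay lowest of all arrays. Without it the difference was 0.058 for miR-30c-5p and 0.021 for miR-30d-5p. Without LAD array 1 that of miR-30d-5p was 0.40 (adjusted p = 0.122).

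The miR-26 members, whose seeds are identical, differed in how they behaved on the LAD arrays. mmu-miR-26a-5p had 10.95, 10.97, 11.00 and 11.04 in EAM and 11.03, 10.85 and 10.91 in LAD. The LAD arrays lay within 0.15 of the EAM mean, and the difference was 0.059 (limma adjusted p = 0.635, 95% interval -0.19 to 0.31).

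mmu-miR-26b-5p had 10.87, 10.92, 10.96 and 11.08 in EAM and 10.93, 9.98 and 10.32 in LAD. LAD array 1 lay inside the EAM range, and LAD arrays 2 and 3 lay 0.98 and 0.64 below the EAM mean. The difference of 0.55 (standard error 0.21, 95% interval 0.052 to 1.05) did not pass (limma adjusted p = 0.0547). Without LAD array 1 it was 0.81 and passed (adjusted p = 0.0141), and without LAD array 2 it was 0.34 (adjusted p = 0.1004).

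The LAD arrays did not order the members alike. Relative to the EAM mean, LAD array 2 was 0.98 below for miR-26b-5p and 0.75 below for miR-30b-5p, but 0.09 below for miR-30a-5p and 0.14 above for miR-30e-5p. LAD array 1 was 0.56 below for miR-30a-5p and 0.28 below for miR-30e-5p, but 0.03 below for miR-26b-5p. LAD array 3 was below the EAM mean for all 7 members, by 0.074 for miR-26a-5p up to 1.08 for miR-30b-5p.

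The median difference toward EAM was 0.27 over the 5 miR-30 members and 0.30 over the miR-26 pair, beside 0.30 over all 423 tested miRNAs. Over the 251 miRNAs detected on all 7 arrays, as all members were, the median was -0.10, below each of the 7 members, and 57.8% passed in either direction and 23.9% toward EAM.

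The number of members that passed changed with the scaling of the arrays. All 7 passed toward EAM when the arrays were scaled to their 75th percentile over all probes, to their median or to spiked-in control RNAs, or were not scaled. Of all 423 tested miRNAs, 58.4%, 62.6%, 86.8% and 70.7% passed toward EAM in these sets. With the 75th percentile of the probes detected on all arrays 4 passed, beside 12.8% of all tested, and there miR-30a-5p was slightly lower in EAM, at -0.092 (limma adjusted p = 0.525). In the authors' deposited table the same limma test called 5 members, beside 35.2% of all tested toward EAM, with differences of 0.90 for miR-30b-5p, 0.88 for miR-26b-5p, 0.54 for miR-30c-5p, 0.45 for miR-30d-5p and 0.31 for miR-26a-5p. By the scanner's total gene signal 0 passed, beside 35.5% of all tested. The scalings also moved the median of all tested miRNAs, from -0.33 with the detected probes to 1.39 with spiked-in RNAs. The share of all calls that pointed toward EAM was 60.5% in the quantile-normalized values and ran from 22.7% with the detected probes to 99.5% with spiked-in RNAs. miR-26b-5p and miR-30b-5p lay above the median of all tested miRNAs in 17 of the 18 sets of values, all but total gene signal, and miR-30a-5p in 17, all but the longest probes. miR-26a-5p did so in 7.

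**Figure D2:**
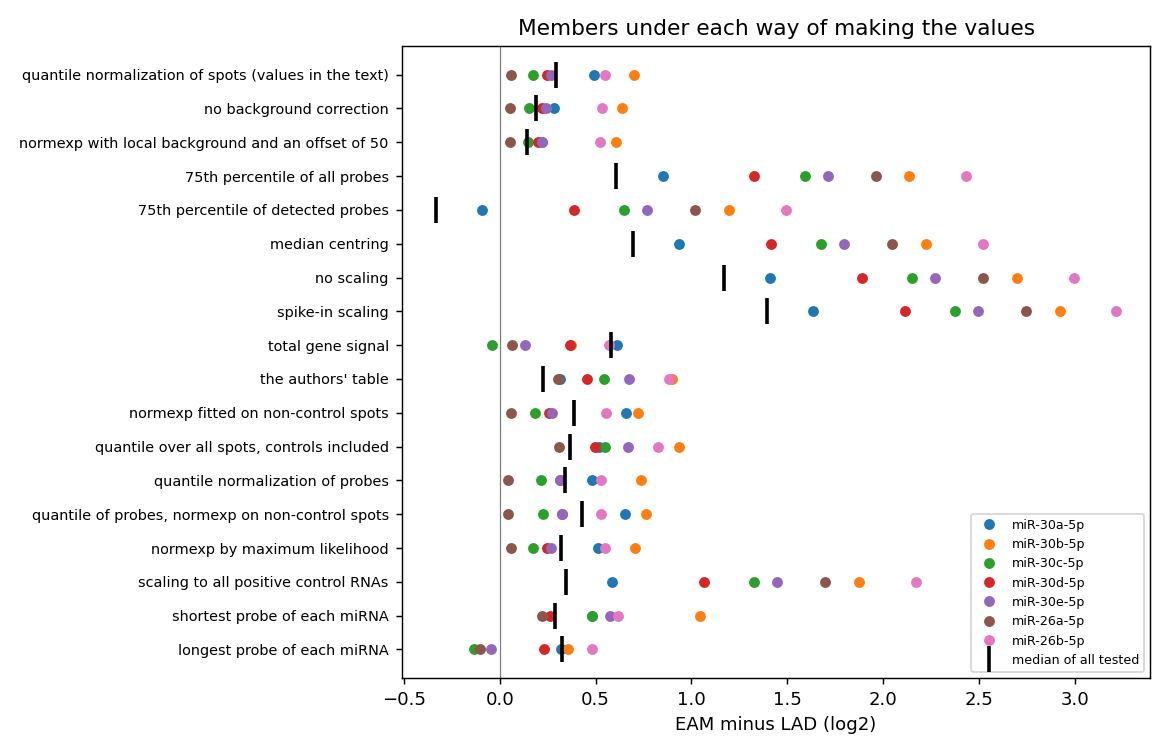
EAM minus LAD difference (horizontal axis, log2) of each member (coloured points) under each way of making the values (rows); black bars are the median of all 423 tested miRNAs. The members spread from -0.13 to 3.22, and all 7 lie right of the black bar where the arrays are scaled by 1 factor each or not at all.

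Before any scaling the members were dimmer on every LAD array than on every EAM array. The mean of the 7 members was 10.06 ± 0.20 (log2, SD, n = 4) in EAM against 7.79 ± 1.03 (SD, n = 3) in LAD. A two-sided exact permutation test over the 35 splits of the arrays gave p = 0.0571, which is as low as it can go. The positive control RNAs of the array did not move alike. Of 12, the 4 fly RNAs used here as spike-ins had a mean of 12.85 ± 0.19 in EAM and 13.07 ± 0.01 in LAD. They were kept after the values of all 12 had been seen, and the other 8 had lower means in LAD, by 0.40 to 2.14. Among these 8, the fly RNAs dmr_308 and dmr_316 and the control hur_5 were dim in both groups, with means of 3.87 to 4.47. The mean over all 12 was 11.99 ± 0.13 in EAM and 11.17 ± 0.55 in LAD, so the level of the 4 is a description and no independent check. The 75th percentile of the probes detected on all arrays was 8.26 ± 0.16 in EAM and 6.76 ± 0.63 in LAD. The labels state that each array received the same mass of total RNA. The part of overall signal in the members' differences was not tested.

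**Figure D3:**
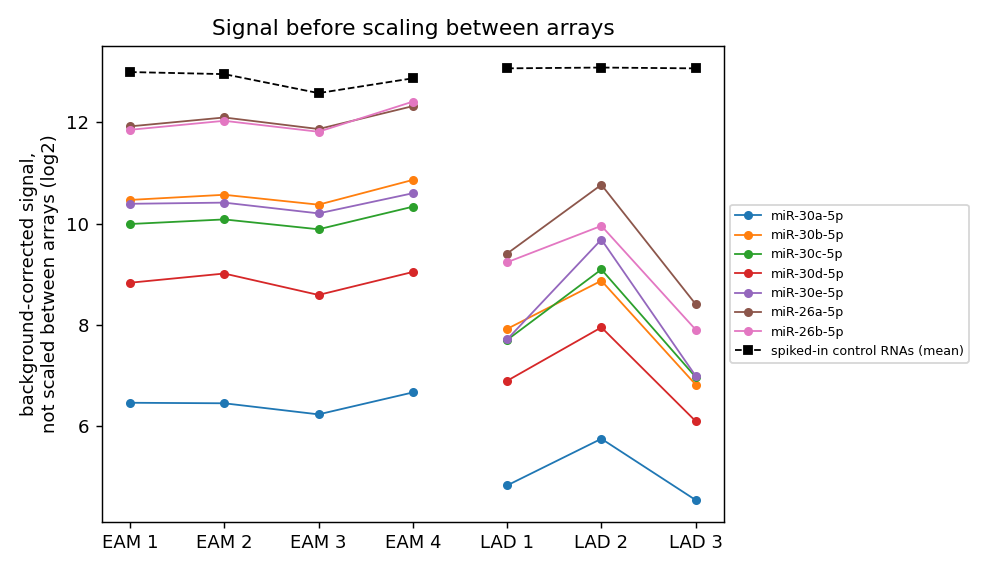
Background-corrected log2 signal without scaling (vertical axis) of the 7 members and the mean of 4 spiked-in control RNAs (dashed) on each array; lines join the arrays of a model and imply no order. The members' mean is 6.82 on LAD array 3, where the 4 control RNAs are at 13.07; these 4 were kept out of 12 after their values were seen, and the other 8 had lower means in LAD.

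The ratio of 2 members on the same array is not moved by a factor common to the array. The ratios here are of quantile-normalized values, a scaling that is not 1 factor per array and can move them. The ratio's size has no meaning, because probes differ in brightness, so its change between arrays was compared. The log2 ratio of miR-26a-5p to miR-26b-5p was 0.07, 0.05, 0.04 and -0.04 on the EAM arrays and 0.10, 0.86 and 0.60 on the LAD arrays. It was higher on all LAD arrays than on all EAM arrays, with LAD array 1 just above the highest EAM array. The difference was -0.49 (EAM minus LAD).

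The log2 ratio of miR-30b-5p to miR-30c-5p was 0.42, 0.46, 0.48 and 0.52 on the EAM arrays and 0.24, -0.20 and -0.20 on the LAD arrays. It was lower on all LAD arrays, by 0.53 on average. Of the 21 pairs of members, 5 did not overlap between the groups, where 49.8% of all pairs of tested miRNAs and 49.3% of those detected on all arrays did not. The others were miR-30a-5p to miR-30e-5p, miR-30b-5p to miR-30d-5p and miR-30b-5p to miR-26a-5p. Each of the 5 had a two-sided exact permutation p of 0.0571, the smallest possible with 7 arrays, and 0.240 after Benjamini-Hochberg adjustment over 21 pairs, so none passed.

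These 2 ratios had the same direction and no overlap in all 18 sets of values. They stand out from the other pairs by this, so it is a description and no separate support. Both ratios were the same in the 6 sets where each array is scaled by 1 factor or not at all. So 13 of the 18 sets are distinct, and they share the same arrays. Ratios with miR-30a-5p moved slightly between such sets, as from -1.284 to -1.287 for its ratio to miR-30b-5p. The difference of the miR-26a-5p to miR-26b-5p ratio (EAM minus LAD) ranged from -0.58 to -0.40 and that of the miR-30b-5p to miR-30c-5p ratio from 0.36 to 0.56. The ratio of miR-30b-5p to miR-30d-5p had the same direction in all 18 sets and no overlap in 16. That of miR-30b-5p to miR-26a-5p had the same direction in 18 and no overlap in 10. The ratio of miR-30a-5p to miR-30e-5p changed direction: it ranged from -0.86 to 0.48, with no overlap in 7.

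**Figure D4:**
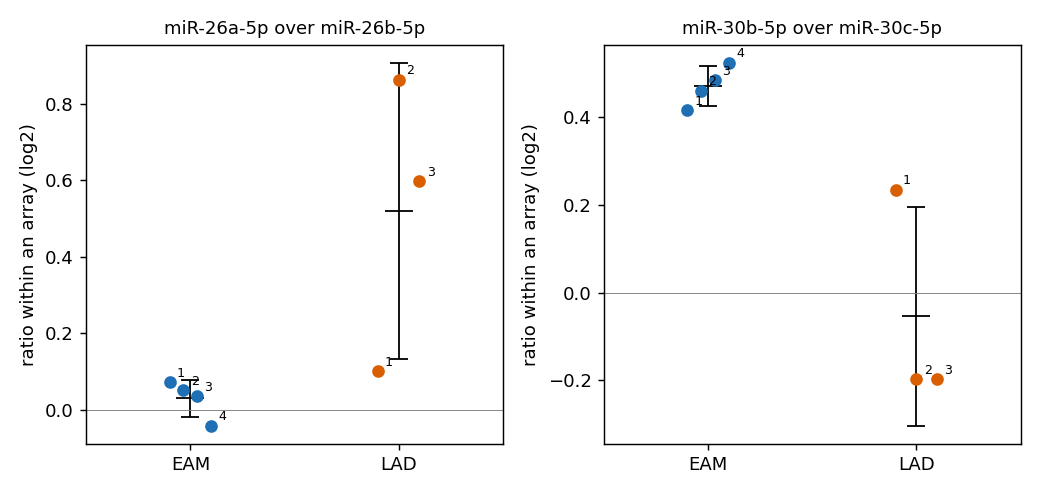
Log2 ratio of miR-26a-5p to miR-26b-5p (left) and of miR-30b-5p to miR-30c-5p (right) on each array, with mean and SD by model; numbers are replicates. LAD arrays 2 and 3 lie farthest from the EAM arrays in both panels, and LAD array 1 lies nearest.

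Each member was read by 2 or 3 probes of different length. The probes of miR-30a-5p and miR-30e-5p illustrate how little separates some targets, with the differing base in capitals.
miR-30a-5p probe: cttccagtcGaggatgt
miR-30e-5p probe: cttccagtcAaggatgt

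In the best ungapped register, the 17-base probe of miR-30a-5p paired with 16 bases of miR-30e-5p, and that of miR-30e-5p with 16 bases of miR-30a-5p. The 14-base probe of miR-30d-5p paired with 13 bases of miR-30a-5p. The 20-base probe of miR-26b-5p paired with 18 bases of miR-26a-5p, and the 16-base probe of miR-26a-5p with 13 bases of miR-26b-5p. Whether signal crosses between such members was not tested.

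The probes of a member did not always give the same difference after quantile normalization. For miR-30b-5p the 16-base probe gave 1.04 and the 17-base probe 0.36. For miR-30c-5p the 17-base and 18-base probes gave 0.48 and -0.13, and for miR-30e-5p the 16-base and 17-base probes gave 0.58 and -0.04. For miR-26a-5p the 15-base and 16-base probes gave 0.22 and -0.10. For miR-26b-5p the probes were closer, at 0.62 and 0.48, and for miR-30d-5p at 0.26 and 0.23. Without scaling the probe pairs of miR-30b-5p gave 2.66 and 2.73, those of miR-30c-5p 2.13 and 2.17, and those of miR-30e-5p 2.26 and 2.28. Those of miR-26a-5p gave 2.56 and 2.49, and those of miR-26b-5p 3.03 and 2.96. For these members the gap between probes was smaller without scaling. For miR-30d-5p and miR-30a-5p it was larger. Without scaling the probes of miR-30d-5p gave 1.82 and 1.95. The 15-, 16- and 17-base probes of miR-30a-5p gave 0.48, 0.49 and 0.32 after quantile normalization and 1.03, 1.41 and 1.85 without scaling. With the longest probe of each miRNA 0 members passed, beside 27.7% of all tested toward EAM. With the shortest probe 4 did, beside 35% of all tested.

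**Figure D5:**
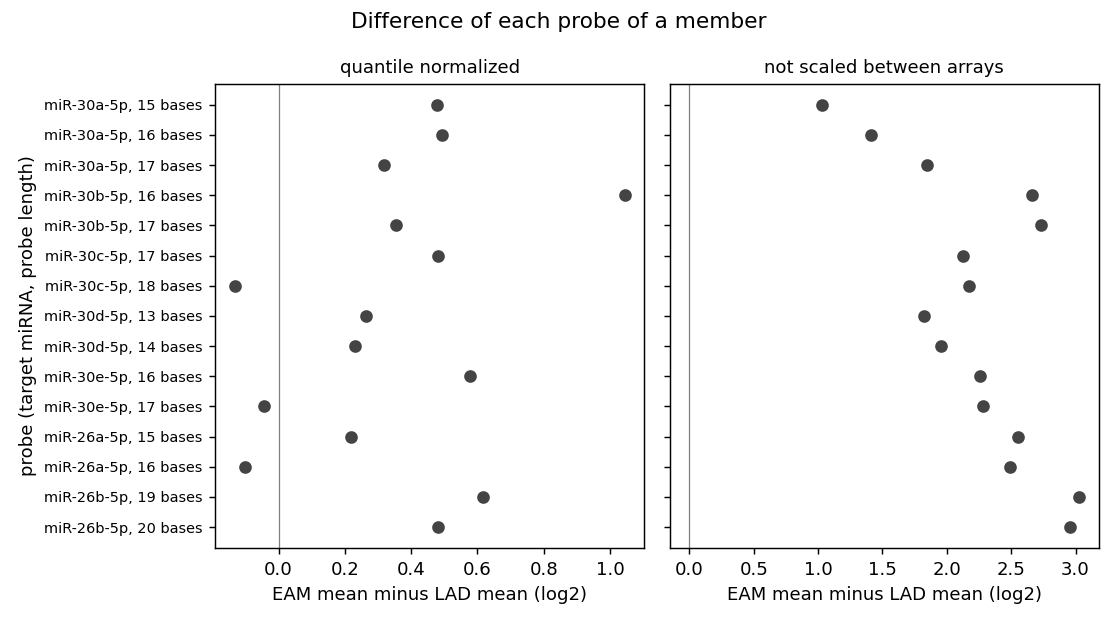
Difference between the EAM and LAD means (horizontal axis, log2) of each probe of each member (rows, with probe length), after quantile normalization (left) and without scaling (right). The probes of miR-30b-5p, miR-30c-5p and miR-30e-5p spread apart on the left and nearly coincide on the right.

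The passenger strands, the 3p arms released from the same hairpins, were mostly near or below detection. Of 9, 3 could be tested and 4 were detected on 0 arrays. miR-30c-1-3p was higher in EAM, with 5.69, 5.94, 5.75 and 5.83 against 5.70 on LAD array 2 and 4.81 and 5.04 on LAD arrays 1 and 3. The difference was 0.62 (standard error 0.21, limma adjusted p = 0.0386), and the groups overlapped. It did not pass without any single EAM array, without LAD array 1 or without LAD array 3 (adjusted p = 0.0666 to 0.122), and scaled to the detected probes' 75th percentile it was -0.078.

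miR-30e-3p had 6.07, 6.18, 6.34 and 6.46 in EAM, and in LAD 6.39 on array 2 but 5.20 and 5.01 on arrays 1 and 3. Its difference of 0.73 did not pass (limma adjusted p = 0.0767), and 2 of 3 LAD arrays detected it. LAD array 2 was the highest of the LAD arrays for both arms of miR-30e. miR-30b-3p differed by -0.11 (adjusted p = 0.489), the opposite sign to miR-30b-5p, though without scaling it was 0.51. miR-30d-3p was detected on 3 of 4 EAM arrays and 0 of 3 LAD arrays, and miR-26b-3p on 1 EAM array.

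The tested miRNAs whose profile over the 7 arrays lay nearest to the mean miR-30 profile were let-7c-5p, let-7b-5p, miR-221-3p, miR-3473f and miR-652-3p, at a root mean square distance of 0.039 to 0.098 log2 units. Those nearest to the mean miR-26 profile were miR-142a-5p, miR-29b-1-5p, miR-5119, let-7g-5p and miR-1843a-5p, at 0.099 to 0.14. Of the 3 LAD arrays, 0 detected miR-29b-1-5p and miR-1843a-5p, 1 detected miR-221-3p and 2 detected miR-3473f. These miRNAs were tested only because all 4 EAM arrays detected them. The others named here were detected on all 7 arrays. For comparison, the members lay 0.11 to 0.21 from the mean of the miR-30 family and 0.16 from that of the miR-26 family. The members' distance includes each member in its own mean. The outside miRNAs were picked as the nearest of all tested ones, whereas the members were not picked by distance. Their smaller distances are therefore a description and do not show how alike the members are.

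In a list of 20 miRNAs known as high in resting T lymphocytes, with no member of either family, 19 were tested: 11 passed toward EAM, 0 toward LAD and 8 did not pass, with a median of 0.43. In a list of 16 miRNAs known to rise on T cell activation, 13 were tested, of which 2 passed toward EAM, 1 toward LAD and 10 did not, with a median of 0.26. Of the first list 18 and of the second 9 were detected on all 7 arrays. The other tested miRNAs of both lists were detected on all EAM arrays but not on all LAD arrays. Beside these lists, 1 of the 7 members passed, with a median of 0.27, and all members were detected on all arrays. Of all tested miRNAs, 36.2% passed toward EAM and 23.6% toward LAD, with a median of 0.30. Of those detected on all arrays, 23.9% passed toward EAM.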

How the data were processed

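MiRNA was read in CD4+ T cells of 4 EAM and 3 LAD samples. Per the file headers, the deposited scanner files (Agilent Feature Extraction 10.7.3.1, array design on mm9) give intensity per spot, unscaled, and 0 or 1 marks of detection and spot quality. The authors' deposited table holds log2 values; the submitters' processing notes name RMA, and its other steps are not given in the sources used here. It correlated at 0.999 with quantile-normalized signal without background correction (96.5% of values within 0.1), but for the members the mean gap was 0.267, so the scale of their values there is not settled.

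Mean spot signal was corrected with normexp (limma 3.58.1 in R 4.3.3; files read with data.table, version 1.17.8) on all spots. Controls were then left out, spots log2 transformed, quantile normalized, reduced to the median per probe without outlier spots, and median polished per miRNA. limma was run on the 423 miRNAs that all arrays of EAM, of LAD or of both detected. Precision is limited by the number of arrays. The test was tried on simulated data. The named miRNAs were the members, their 3p arms and, by distance of profiles, the 5 nearest miRNAs per family.

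The members and lists were chosen with earlier results of these data known. After seeing the data, 8 alternatives were added to the 15 planned, the spike-in set was narrowed from 12 control RNAs to the 4 fly RNAs over 10 times the negative controls, and the miR-142 names of the lists were matched to those of the array.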

Additional observations from a re-analysis of the deposited data

How the results depend on the processing

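The count of members that passed, 1 in the quantile-normalized values, was 7 with the 75th percentile of all probes, median centring, no scaling, spiked-in RNAs and all 12 positive control RNAs. It was 5 in the authors' table and with quantile normalization over all spots, 4 when scaled to the detected probes' 75th percentile or with the shortest probes, and 3 with array weights. It was 2 with trended robust eBayes, with normexp fitted on non-control spots (of spots or of probes) and with normexp by maximum likelihood. It was 0 by total gene signal, with the longest probes and with the replicate block, and 0 to 3 when 1 array was left out. Beside these counts, the share of the 423 that passed toward EAM was 36.2% in the quantile-normalized values. It was 58.4%, 62.6%, 70.7%, 86.8% and 49.4% in the 5 sets with 7 members. In the order named above, it was 35.2% and 38.8% with 5 members, 12.8% and 35% with 4, and 50.6% with 3. With 2 members it was 38.5%, 37.4%, 41.4% and 36.6%, and with 0 members 35.5%, 27.7% and 0%. When 1 array was left out it ran from 9.46% to 55.1%. The count over all tested miRNAs, 253, was 133 with detection on all 7 arrays, 452 with no filter and 72 to 345 when 1 array was left out.

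With the replicate number as a block, limma called 0 of 423 miRNAs (181 at an unadjusted p under 0.05), and miR-30b-5p had a difference of 0.67 (adjusted p = 0.0993). Deviations of same-numbered arrays correlated at 0.19, -0.16 and -0.19, and those of differently numbered arrays at -0.38 to 0.33. These values do not show whether the numbers pair the samples.

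The median difference of the miR-30 members, 0.27, was 1.59 with the 75th percentile of all probes, 0.65 with detected probes, 1.68 with median centring, 2.15 with no scaling, 2.37 with spiked-in RNAs, 1.33 with all positive controls, 0.54 in the authors' table and 0.55 with quantile normalization over all spots. That of the miR-26 members, 0.30, was 2.20, 1.26, 2.28, 2.76, 2.98, 1.93, 0.59 and 0.57 in the same order. Leaving out 1 array gave 0.072 to 0.47 and 0.18 to 0.46.

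Signs turned in 9 cases. Scaled to the detected probes' 75th percentile, miR-30a-5p was at -0.092 and miR-30c-1-3p at -0.078, and by total gene signal miR-30c-5p was at -0.041. With the longest probes miR-30c-5p, miR-30e-5p and miR-26a-5p were at -0.13, -0.043 and -0.10. miR-30b-3p was at 0.039 with median centring, 0.51 with no scaling and 0.73 with spiked-in RNAs. Signal over background was lower on the LAD arrays, and the cause of these changes was not tested. The 8 alternatives on normexp fitting, quantile normalization of all spots or of probes, positive controls and single probes were chosen after seeing the data, some to compare with earlier counts of these data.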
